A study of Mus musculus with 6 samples.

Results

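Histone and DNA methylation enzymes write, remove or recruit the chemical marks that set whether chromatin is packed or open. Lysine methyltransferases add methyl groups to histone tails and lysine demethylases take them off, histone deacetylases and sirtuins strip acetyl groups, DNA methyltransferases place methyl groups on cytosine, and Tet enzymes oxidise those groups as the first step of their removal. In microglia, the resident macrophages of the brain, such enzymes are known to help keep the resting state and to switch inflammatory genes. The genes described here are the protein-coding genes of the mm10 RefSeq annotation whose symbol begins with Kdm, Kmt, Hdac, Setd, Smyd, Prdm, Sirt, Ezh, Dnmt or Tet followed by a digit, apart from 2 matching symbols that the rule leaves out. This gave 78 of 21887 coding genes. The Hdac and Sirt genes encode enzymes that act on acetyl and other acyl groups, and the Prdm genes encode zinc-finger proteins of which only some have shown methyltransferase activity, so the set is broader than methylation enzymes in the strict sense.

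Accessible DNA was measured by ATAC-seq, which reads where the Tn5 transposase can cut into chromatin, in sorted microglia of C57BL/6J mice with a labelled age of 8 weeks. Mice of both genotypes carried the Tmem119-CreERT2 allele, a tamoxifen-inducible recombinase driven from a microglial gene, and both were given tamoxifen for 7 days starting at 7 to 8 weeks of age. The conditional knockout (cKO) was Mir137loxP/loxP;Tmem119-CreERT2 and the control (cWT) was Mir137+/+;Tmem119-CreERT2, with 3 libraries of each from about 50000 cells a library, and a stated n of 4 mice that is not tied to libraries. The values at hand were 1 list of peaks per genotype, each deposited as specific to that genotype and without values per library, so neither replicate spread nor depth could be measured. In such bulk chromatin, more cells with an open site and a more open site per cell cannot be told apart.

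The microRNA that the knockout removes, miR-137, has this mature guide strand in RefSeq (GRCm38.p6, chr3:118433901-118433923, plus strand). It is shown because its seed, bases 2 to 8 in capitals, is the stretch with which a microRNA pairs to its targets.
mmu-miR-137-3p: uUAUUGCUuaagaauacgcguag

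The promoters of 4 enzyme genes carried a cKO-specific peak, and 0 of the matched promoters carried a cWT-specific peak. The 4 genes are Tet3, Sirt4, Setd6 and Prdm15. Of the 78 genes, 62 were matched in the RefSeq promoter table (GRCm38.p6), with 88 windows reaching from 250 bases before to 50 bases after an annotated start. Among all 17492 coding genes in that table, 2.92% had a window overlapped by a cKO-specific peak and 1.47% by a cWT-specific peak. The windows are printed 5′ to 3′ in the direction of transcription, because they are where the specific peaks meet an annotated start. Capitals mark matches on either strand to GAGGAA, the purine-rich core recognised by the myeloid factor PU.1, or to GGGCGG, the GC box of Sp and KLF factors; no match to one overlapped a match to the other.
Tet3 (chr6:83441629-83441928, minus strand): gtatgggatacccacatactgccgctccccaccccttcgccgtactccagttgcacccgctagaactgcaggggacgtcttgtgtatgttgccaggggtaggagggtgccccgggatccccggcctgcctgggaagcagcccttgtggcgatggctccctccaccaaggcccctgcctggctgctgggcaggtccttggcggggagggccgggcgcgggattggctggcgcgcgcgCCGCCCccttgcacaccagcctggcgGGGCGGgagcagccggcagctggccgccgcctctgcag
Sirt4 (chr5:115484248-115484547, minus strand): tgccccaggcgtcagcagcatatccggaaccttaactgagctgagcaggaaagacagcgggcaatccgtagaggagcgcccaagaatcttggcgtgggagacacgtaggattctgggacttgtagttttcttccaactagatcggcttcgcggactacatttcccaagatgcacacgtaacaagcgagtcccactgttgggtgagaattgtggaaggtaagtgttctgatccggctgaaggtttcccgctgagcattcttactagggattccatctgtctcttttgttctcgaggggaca
Setd6 (chr8:95715663-95715962, plus strand): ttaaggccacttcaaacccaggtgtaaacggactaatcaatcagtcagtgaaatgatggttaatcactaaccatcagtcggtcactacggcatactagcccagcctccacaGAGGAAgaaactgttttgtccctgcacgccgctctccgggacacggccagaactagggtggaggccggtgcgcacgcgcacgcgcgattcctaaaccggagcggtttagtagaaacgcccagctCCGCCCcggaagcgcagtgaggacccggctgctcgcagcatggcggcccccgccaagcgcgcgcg
Prdm15 (chr16:97851801-97852100, minus strand): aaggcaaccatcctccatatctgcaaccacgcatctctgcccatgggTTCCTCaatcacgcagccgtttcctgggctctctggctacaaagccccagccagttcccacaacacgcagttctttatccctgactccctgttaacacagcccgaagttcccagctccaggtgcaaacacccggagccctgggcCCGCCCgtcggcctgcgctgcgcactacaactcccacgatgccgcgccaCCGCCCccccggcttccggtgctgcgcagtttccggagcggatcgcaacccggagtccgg

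The Tet3 peak (chr6:83441304-83441872) covered 81.3% of its window, had an authors' signal of 27.1 and stood at percentile 90.2 of signal within the cKO list. Tet3 oxidises methylated cytosine, and this start lies inside the gene, with the midpoint of the peak 15620 bp from the nearest end of the annotated span. The Sirt4 peak (chr5:115484053-115484626) covered its whole window with a signal of 25.3, at percentile 86.9. Sirt4 is a mitochondrial sirtuin; its start is also internal, the midpoint being 5925 bp from an end of the span. These were the only member peaks that the authors named primary, 2 of 62 (3.23%) against 2.51% of all assigned peaks, and they had the lowest authors' p-values among the members, 0.185 at Tet3 and 0.136 at Sirt4. What that p-value tests is not stated, and the adjusted p-values in the authors' deposited table were 0.940 and 0.844. The peaks at Tet3 and Sirt4 also overlapped the promoter windows of the neighbouring transcripts B230319C09Rik and Gm42007, so they cannot be given to 1 gene alone.

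At Setd6, whose human counterpart methylates a subunit of NF-kB, the peak (chr8:95715713-95716281) covered 83.3% of the window with a signal of 22.7 and an authors' p-value of 0.461. At Prdm15, a zinc-finger gene, the peak (chr16:97851768-97852269) covered the whole window and had the highest signal of the members' cKO-specific peaks, 31.2, at percentile 95.1, with an authors' p-value of 0.429. All 4 peaks were wider than the median cKO member peak of 308 bp, from 502 bp at Prdm15 to 574 bp at Sirt4. Tet3 had 2 GC box matches, Prdm15 had 2 with 1 PU.1 core match, Setd6 had 1 of each, and Sirt4 had 0 of either. A GC box match was found in 56 of the 88 member windows (63.6%) and in 46.2% of all 21263 coding windows, and a PU.1 core match in 23 (26.1%) and 27.4%. The member windows had a median of 21 CpG sites, against 13 in all coding windows. The GC box shares were not matched for this. The match to the miR-137-3p seed, AGCAATA on either strand, was in none of the 4 windows. Over all member windows it was in 2, those of Hdac9 and Sirt7 (2.27%, against 1.69% of coding windows). These windows are promoter DNA and not whole transcripts, so the search cannot tell whether a gene is a target of miR-137. The AP-1 motif TGANTCA was in 8 member windows (9.09%, against 6.99%) and in none of these 4. A match is a string of letters, not a site at which binding was measured.

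**Figure D1:**
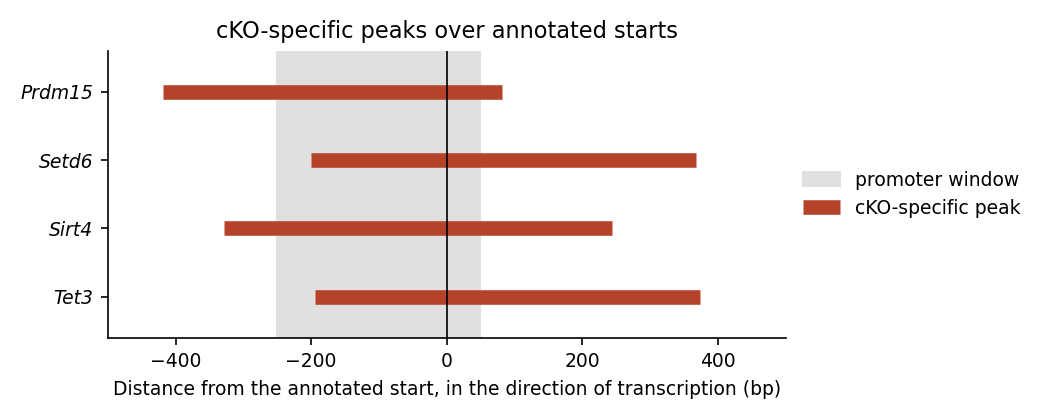
Extent of the cKO-specific peaks (red bars) over the annotated starts of Prdm15, Setd6, Sirt4 and Tet3, in bp from the start in the direction of transcription; the grey band is the promoter window. All 4 peaks cross the start, with the farthest reach upstream at Prdm15 (-419 bp) and the farthest downstream at Tet3 (374 bp).

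To take in the rest of each locus, every peak of both lists was given to the coding gene whose nearest end was closest to its midpoint, up to 100 kb away. A peak assigned this way is near a gene and is not shown to regulate it. Of the 78 enzyme genes, 37 had at least 1 specific peak and 41 had none; over all coding genes, 27.9% had one. A cKO-specific peak was assigned to 31 genes (39.7%), against 22.5% of all coding genes, and a cWT-specific peak to 13 (16.7%), against 11.4%. Peaks of both lists were assigned to 7 genes (8.97%, against 5.95%), and 5 genes had 3 or more peaks (6.41%, against 5.35%). The enzyme genes are long, with a median span of 44.8 kb against 17.2 kb for coding genes, and long genes have more room for a peak.

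Set beside coding genes of similar span, the gap to the background was smaller for cKO-specific peaks in each of 3 span classes, and for cWT-specific peaks it varied in size and sign. Among genes of 20 to 100 kb, 22 of 50 enzyme genes (44.0%) had a cKO-specific peak, against 29.3% of coding genes, and 8 (16.0%) had a cWT-specific peak, against 15.0%. Above 100 kb it was 6 of 14 (42.9%, against 40.1%) for cKO and 5 of 14 (35.7%, against 27.0%) for cWT. Below 20 kb it was 3 of 14 (21.4%, against 14.5%) for cKO and 0 of 14, against 5.92%, for cWT. Only the cKO share of the middle class, which holds most of the genes, stood more than 10 percentage points above its background. No test was made of these shares, since the genes were chosen with earlier results of these lists known.

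**Figure D2:**
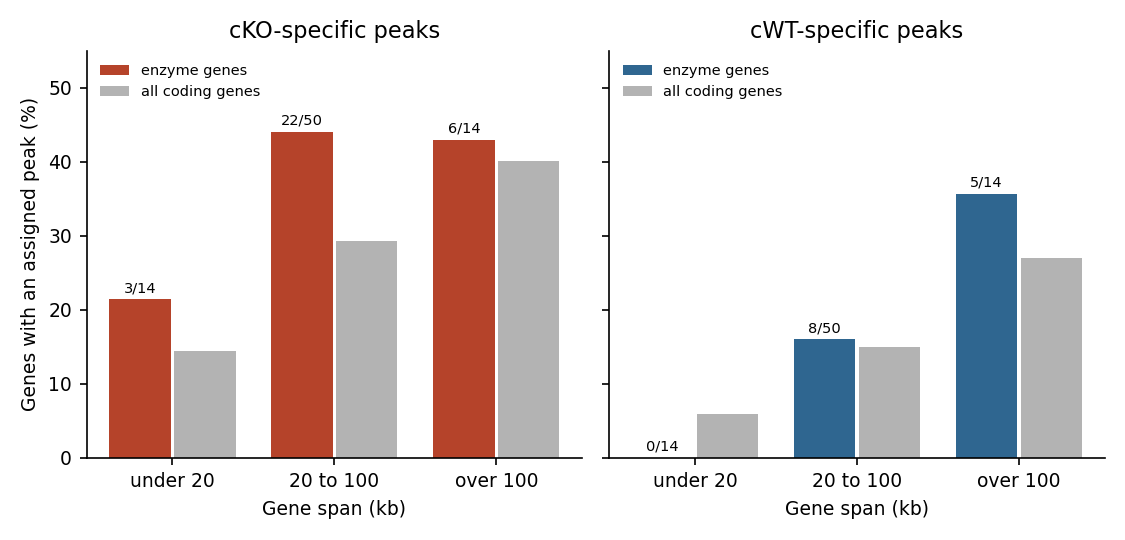
Percent of genes with an assigned peak (vertical axis) by gene span in kb (horizontal axis), for cKO-specific (left) and cWT-specific (right) peaks; coloured bars are the enzyme genes with their counts, grey bars all coding genes. The enzyme genes stand at 44.0% against 29.3% for cKO-specific peaks at 20 to 100 kb, and close to the grey bar, at 16.0% against 15.0%, for cWT-specific peaks there.

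The balance between the genotypes was close to that of the whole lists. The enzyme genes held 45 cKO-specific and 17 cWT-specific peaks, a cKO share of 72.6% (exact Clopper-Pearson 95% interval 59.8 to 83.1%, counting error over peaks only), and over all 11013 assigned peaks the share was 71.7%. By class the counts differed. At demethylase genes there were 12 peaks of the cKO list and 2 of the cWT list, at Kmt genes 7 and 0, at Setd genes 3 and 2, at Smyd genes 2 and 4, at Prdm genes 8 and 6, at deacetylase and sirtuin genes 7 and 1, and at genes of DNA methylation and its removal 6 and 2. These small counts were not tested against each other. A test of single genes was run over all 271 coding genes with at least 5 assigned peaks, and the exact binomial test called 0 of them (0%) after Benjamini-Hochberg adjustment, with 6 at an unadjusted p under 0.05. Prdm1 was the only enzyme gene with enough peaks to be tested, and its 4 cKO-specific and 2 cWT-specific peaks gave an exact p of 0.678 (adjusted p = 1.0). The test had little reach at such totals. Genes with 6 cKO-specific and 0 cWT-specific peaks had an exact binomial p of 0.194, and 10 and 0 gave 0.0719. A lean toward cKO could therefore not be called at Prdm1 whatever its split, and no conclusion is drawn from its result.

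**Figure D3:**
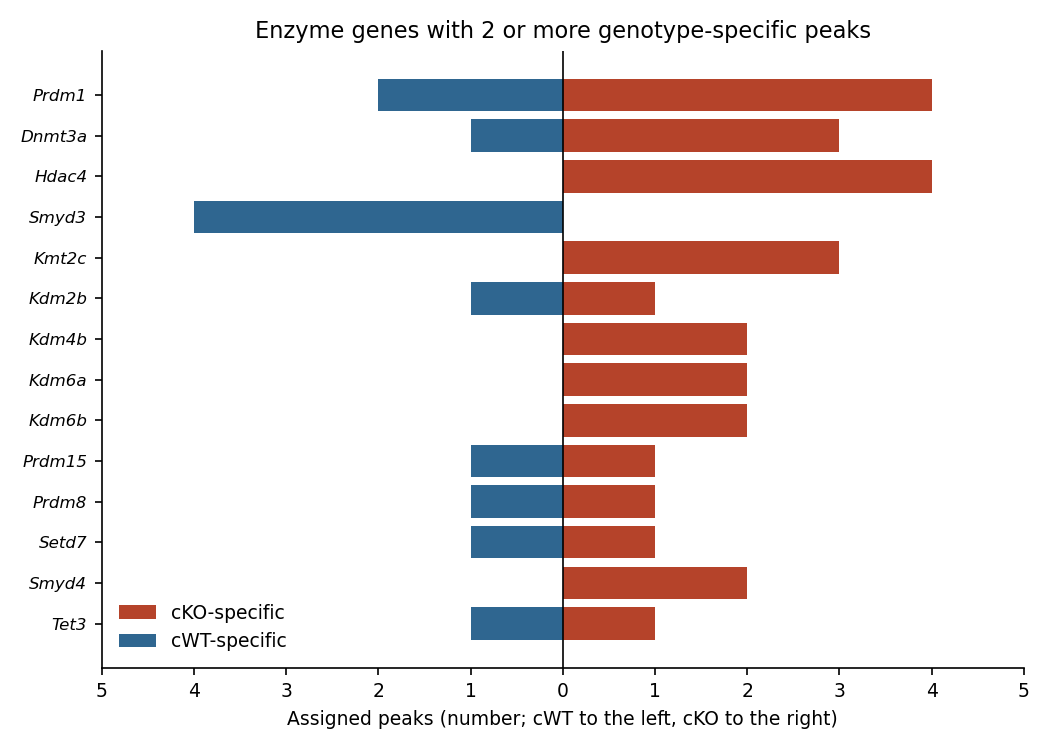
Number of assigned cKO-specific peaks (red, to the right) and cWT-specific peaks (blue, to the left) for each of the 14 enzyme genes with 2 or more peaks. Prdm1 and Hdac4 have the most cKO-specific peaks, 4 each, and Smyd3 the most cWT-specific peaks, 4, with 0 to its right.

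Among the methyltransferases (Kmt, Setd, Smyd and Ezh symbols), 11 of 22 genes (50%) had a peak, against 27.9% of coding genes. Of the 22, 9 (40.9%, against 22.5%) had a cKO-specific and 3 (13.6%, against 11.4%) a cWT-specific peak. The median span of the 22 genes was 44.0 kb, against 17.2 kb for coding genes. Kmt2c, an enzyme of the COMPASS family that marks enhancers, had 3 cKO-specific peaks and 0 cWT-specific peaks. They lay inside the gene at chr5:25420720-25420919, chr5:25436085-25436358 and chr5:25472104-25472260, with signals of 10.9, 13.6 and 12.1. The authors number peaks per genotype along the genome, and these numbers were consecutive, so all 3 peaks numbered in that 51.5 kb were in the list. All 3 signals lay below the median of the cKO list, at percentiles from 18.3 to 33.6. Kmt2d, its close relative, Kmt2e, and the histone H4 methyltransferase genes Kmt5a and Kmt5b had 1 cKO-specific peak each and 0 cWT-specific peaks. The Kmt5b peak was intergenic, 14769 bp from the gene, with a signal of 25.7, and the Kmt5a peak lay inside the gene with a signal of 6.99.

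Smyd3, a lysine methyltransferase gene spanning 566.1 kb of chromosome 1, went the other way, with 4 cWT-specific and 0 cKO-specific peaks assigned. Of these, 3 lay toward one end, at chr1:178988712-178988959, chr1:178989366-178989761 and chr1:179010568-179010918, with signals of 7.70, 10.2 and 9.34. The fourth, at chr1:179435114-179435312, had a signal of 26.5, the highest of the cWT-specific peaks of the enzyme genes and at percentile 92.8 of its list. A further 2 cWT-specific peaks and 1 cKO-specific peak lay inside Smyd3 but over 100 kb from either end, at distances of 102475, 135274 and 211232 bp, so the rule gave them to no gene. Counting them, 6 of the 8 cWT peaks numbered over the 446.6 kb from the first to the last were in the list. Merging peaks within 500 bp left 3 of the 4 assigned peaks. When each peak inside a gene was given to that gene whatever its distance, Smyd3 had 1 cKO-specific and 6 cWT-specific peaks, with an exact binomial p of 0.00282 and an adjusted p of 0.318 over 338 genes, of which 0 were called and 10 had an unadjusted p under 0.05. All 4 assigned peaks of Smyd3 had authors' p-values of at least 0.778.

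Smyd4 had 2 cKO-specific peaks, of which 1 lay inside the neighbouring gene Rpa1, 23840 bp away. Setd7, which methylates histone H3 and other proteins, had 1 peak of each list, the cWT-specific one inside the gene and the cKO-specific one 23064 bp outside it. Setd4 and Setd6 had 1 cKO-specific peak each, and Setd3, an actin histidine methyltransferase gene, 1 cWT-specific peak 2887 bp from its end. The methyltransferase genes with no specific peak were Ezh1, Kmt2a, Kmt2b, Kmt5c, Setd1a, Setd1b, Setd2, Setd5, Smyd1, Smyd2 and Smyd5. A gene with no peak in either list may be open to the same extent in both genotypes, closed in both, or below what these lists record.

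Of the 17 demethylase genes, 10 (58.8%, against 27.9% of coding genes) had a peak, 9 (52.9%, against 22.5%) with a cKO-specific and 2 (11.8%, against 11.4%) with a cWT-specific one. The median span of the 17 genes was 62.4 kb, against 17.2 kb for coding genes, and these shares were not matched for span. Both genes of the Kdm6 pair, which remove the methyl mark laid down by Polycomb, had 2 cKO-specific and 0 cWT-specific peaks. At Kdm6a, on the X chromosome, the peaks lay inside the gene at chrX:18187156-18187366, with a signal of 16.1, and chrX:18239625-18239958, with a signal of 30.3, at percentile 94.3, and an authors' p-value of 0.426. At Kdm6b, a gene induced in macrophages by inflammatory stimuli, they lay at chr11:69401219-69401526 and chr11:69411685-69411921, 2864 and 8564 bp from an end, with signals of 20.3 and 6.87. The second of these had the lowest signal of the members' cKO-specific peaks. Kdm4b, a demethylase of a heterochromatin mark, had 2 cKO-specific peaks inside the gene, with signals of 24.1 and 13.7.

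The remaining demethylase genes had 1 or 2 peaks. Kdm2b, which brings a Polycomb complex to unmethylated CpG islands, had 1 of each list inside the gene; the cWT-specific one (chr5:122987404-122987645, signal 6.56) was the weakest of the members' cWT-specific peaks and lay 1746 bp from an end. Kdm2a, Kdm5a, Kdm5b, Kdm7a and Kdm8 had 1 cKO-specific peak each, all 5 intergenic, from 4130 bp away at Kdm5b to 26035 bp at Kdm7a. Kdm3b had 1 cWT-specific peak, inside the gene. No specific peak was assigned to Kdm1b, Kdm3a, Kdm4a, Kdm4c, Kdm4d, Kdm5c or Kdm5d; Kdm5d lies on the Y chromosome, where neither list holds a peak.

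Of the 18 deacetylase and sirtuin genes, 5 (27.8%) had a peak, close to the 27.9% of coding genes, 4 (22.2%, against 22.5%) with a cKO-specific and 1 (5.56%, against 11.4%) with a cWT-specific one. The median span of these genes was 21.0 kb, the shortest of the 5 classes. They held 8 peaks, 5 of them at Hdac4 and Hdac5, class IIa deacetylases whose products bind MEF2 factors. Hdac4 had 4 cKO-specific and 0 cWT-specific peaks assigned. Inside the gene these were chr1:91962389-91962581, chr1:92106874-92107232 and chr1:92127588-92128081, with signals of 10.6, 9.44 and 16.6. The fourth, chr1:92216305-92217094, lay 20997 bp outside the gene; at 790 bp it was the widest member peak, with a signal of 25.2 and an authors' p-value of 0.478. A further cKO-specific peak inside Hdac4 was 120126 bp from the nearest end and so was not assigned. Hdac5 had 1 cKO-specific peak inside the gene, with a signal of 22.5.

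Hdac9, the longest of the enzyme genes at 869.5 kb, had 0 assigned peaks but 6 cKO-specific peaks deep inside it, between 252084 and 412632 bp from its nearest end. They ran from chr12:34431916 to chr12:34665176 and were 6 of the 9 numbered cKO peaks over 233.3 kb, the last 4 of them consecutive in number. Their signals were between 10.04 and 17.8, and no cWT-specific peak lay inside the gene. When peaks inside a gene were given to it first, the counts of Hdac9 (6 and 0) had an exact binomial p of 0.193 and an adjusted p of 1.0, and those of Hdac4 (5 and 0) an exact p of 0.331 and an adjusted p of 1.0. Both splits were already the most extreme toward cKO at these totals, so the test could not have called them. The 100 kb limit therefore decided how these long genes were counted; the assigned peaks nearest to it were at 88649 bp (Hdac4) and 87101 bp (Prdm16), and the nearest left out were at 102475 bp (Smyd3) and 120126 bp (Hdac4).

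**Figure D4:**
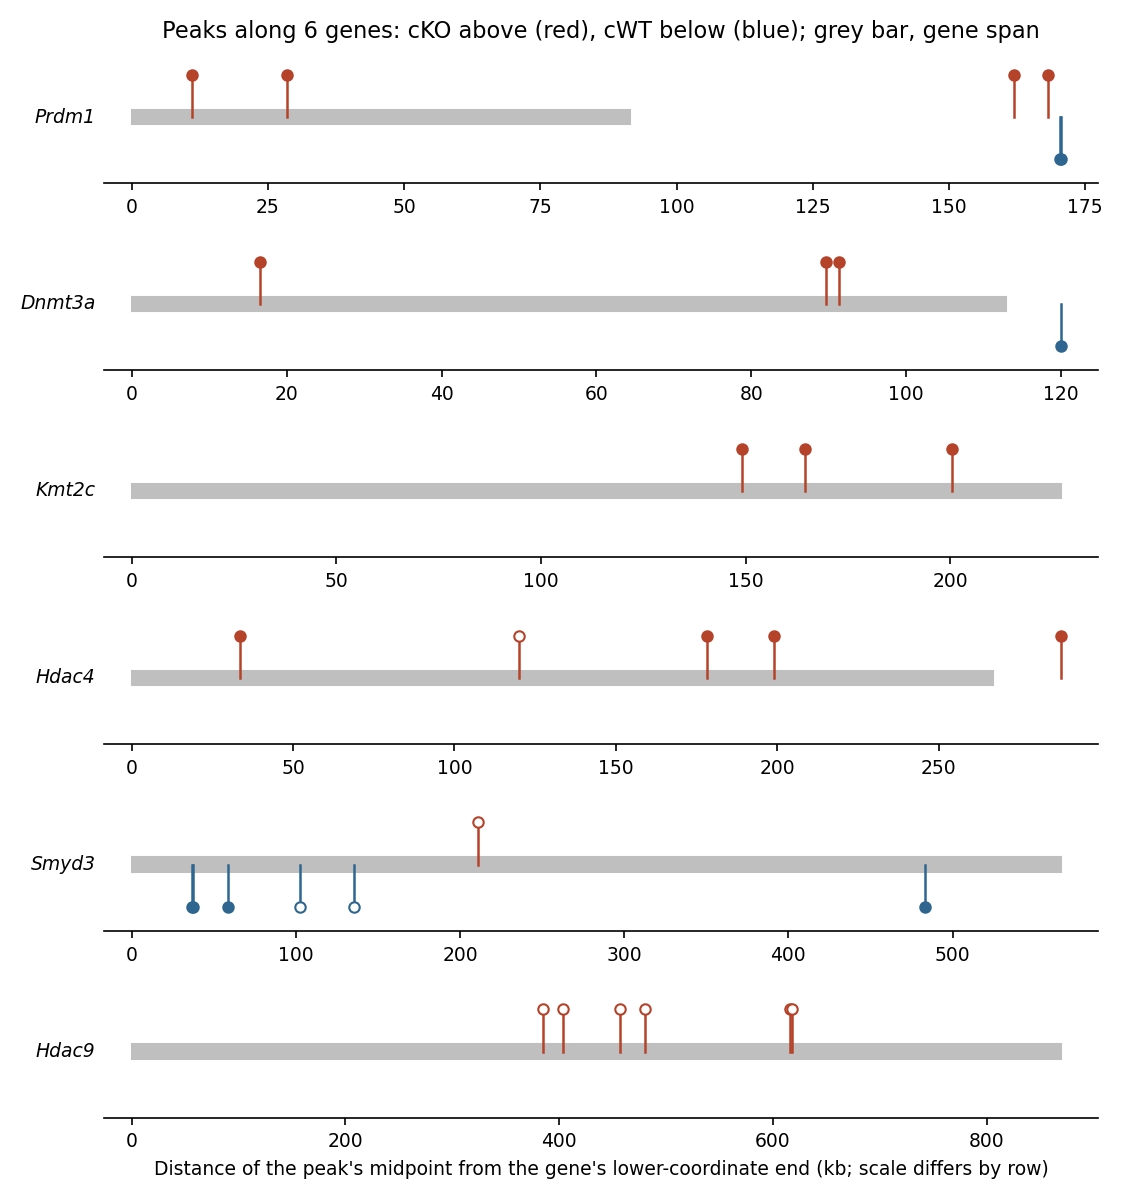
Midpoints of specific peaks along 6 enzyme genes, in kb from the gene's lower-coordinate end, with the gene span as a grey bar; cKO-specific peaks stand above and cWT-specific peaks below, filled where assigned to the gene and open where they lie inside it over 100 kb from an end. Smyd3 has 6 peaks below and 1 above, and Hdac9 has 6 above and 0 below.

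The class I gene Hdac2, a subunit of several corepressor complexes, had 1 cWT-specific peak, 57289 bp away, and 0 cKO-specific peaks. Of the sirtuins, Sirt2, a mainly cytoplasmic deacetylase, had 1 cKO-specific peak inside the gene 660 bp from an end (chr7:28787832-28788179, signal 21.1), besides the Sirt4 peak at its start. Hdac1, Hdac3, Hdac6, Hdac7, Hdac8, Hdac10, Hdac11, Sirt1, Sirt3, Sirt5, Sirt6 and Sirt7 had no specific peak, assigned or deep inside.

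Of the Prdm genes, 7 of 14 (50%, against 27.9% of coding genes) had a peak, 5 (35.7%) with a cKO-specific and 5 with a cWT-specific one, against 22.5% and 11.4%; their median span was 70.7 kb. Prdm1 encodes the repressor Blimp-1, which drives plasma cell formation and acts in several immune lineages. It had the most assigned peaks of any enzyme gene under the 100 kb limit. The cKO-specific peaks lay inside the gene at chr10:44448088-44448436 and chr10:44465498-44465700, with signals of 21.0 and 9.68, and beyond it at chr10:44598790-44599390 and chr10:44605148-44605396, 70532 and 76714 bp away, with signals of 27.1 and 17.2. Its cWT-specific peaks, chr10:44607361-44607610 and chr10:44607611-44607879, adjoined with the same signal of 17.8 and may be 1 region. They began 1965 bp beyond the last cKO-specific peak, so peaks of both lists stood close together beyond that side of the gene. With peaks within 500 bp merged, the counts were 4 and 1.

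Prdm15 and Prdm8, a repressor in neural development, had 1 peak of each list. At Prdm15 the cWT-specific peak (chr16:97845529-97846004, signal 18.8) lay inside the gene, 5764 bp from the cKO-specific peak over the start. The Prdm8 peaks lay 505 bp (cKO-specific, signal 10.2) and 1923 bp (cWT-specific, signal 13.4) from an end of the gene. Prdm9, the meiotic recombination gene, and Prdm6 had 1 cKO-specific peak each, and Prdm16, a brown fat regulator, had 1 cWT-specific peak. Prdm2, Prdm4, Prdm10, Prdm11, Prdm12, Prdm13 and Prdm14 had none.

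Of the 7 genes of DNA methylation and its removal, 4 (57.1%, against 22.5% of coding genes) had a cKO-specific and 2 (28.6%, against 11.4%) a cWT-specific peak, with a median span of 81.5 kb. Dnmt3a, which sets new methylation patterns, had 3 cKO-specific peaks and 1 cWT-specific peak. The cKO-specific peaks lay inside the gene at chr12:3817978-3818282, chr12:3890939-3891322 and chr12:3892676-3892946, with signals of 13.0, 16.9 and 15.3. The last 2 flanked an annotated internal start of Dnmt3a, with midpoints at -614 and 1067 bp from it. The 3 peaks were among 11 numbered cKO peaks over 74.97 kb, so most numbers of that stretch are not in the list. The cWT-specific peak (chr12:3921388-3921673) lay 7087 bp outside the gene, with a signal of 7.88 at percentile 4.90 of its list. With assignment limited to 10 kb it was the only peak left at Dnmt3a, which turned the direction. Dnmt3b had 1 cKO-specific peak 23241 bp away, and Dnmt1, the maintenance methyltransferase gene, and Dnmt3l had none.

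Tet3 had, besides the peak over its internal start, 1 cWT-specific peak inside the gene (chr6:83448602-83448755, signal 7.49), 6730 bp from the cKO-specific one. The levels of the pair stood far apart within their own lists, at percentile 90.2 for the cKO-specific and 3.41 for the cWT-specific peak. Tet1 had 1 cKO-specific peak (chr10:62885949-62886633, signal 21.6) inside the gene, 1033 bp downstream of its annotated start, and Tet2 had none.

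The peaks of the enzyme genes lay mostly within the genes and away from their ends. Of the 62 peaks, 41 (66.1%) lay inside their own gene, against 56.3% of all assigned peaks, 20 were intergenic and 1 lay inside another coding gene. Within 1000 bp of a gene end there were 4 of 45 cKO-specific peaks (8.89%, against 15.0% of all assigned cKO-specific peaks), those of Prdm15, Setd6, Prdm8 and Sirt2, and 0 of 17 cWT-specific peaks, against 17.8%. An end here is either end of the annotated span and need not be a start. The Sirt2 and Prdm8 peaks had midpoints over 10 kb from the nearest start in the promoter table. The Prdm8 peak nevertheless lay 505 bp from the end at which the annotated span of that gene begins. The promoter table holds no start of Prdm8 there. Outside this count, cKO-specific peaks of Sirt4 (-42 bp), Tet3 (90 bp), Kmt5a (-509 bp) and Dnmt3a (-614 bp) had midpoints within 1000 bp of a start. So did the cWT-specific peak of Kdm2b (983 bp). The median distance to the end was 22708 bp for cKO-specific and 36875 bp for cWT-specific peaks, against 10500 and 11607.5 bp over all assigned peaks. None of these comparisons was matched for gene span. The enzyme genes had a median span of 44.8 kb against 17.2 kb for coding genes, and a longer gene has more room inside it and away from its ends. No cKO-specific peak of these genes overlapped a cWT-specific one. Within 10 kb of a peak of the other list there were 5 cKO-specific peaks, at Prdm1, Prdm15, Tet3 and Kdm2a, and 4 cWT-specific peaks, at Prdm1, Prdm15 and Tet3.

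The cKO-specific peaks of the enzyme genes were typical of their list, and the cWT-specific ones had a lower median and a wide range in theirs. The median signal stood at percentile 52.6 of the cKO list (45 peaks) and at percentile 35.8 of the cWT list (17 peaks). The cWT-specific peaks ran from percentile 1.15 to 92.8. Of them 4 were at Smyd3, at percentiles 4.04, 15.2, 23.1 and 92.8, so that gene weighs on the median of these few peaks. An authors' p-value up to 0.5 was given to 6 cKO-specific peaks (13.3%, against 12.4% of assigned cKO-specific peaks), those of Sirt4, Tet3, Kdm6a, Prdm15, Setd6 and Hdac4, and to 0 cWT-specific peaks, against 6.29%. In the authors' deposited table no listed peak had an adjusted p under 0.05, and the lowest among the enzyme genes was 0.844.

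**Figure D5:**
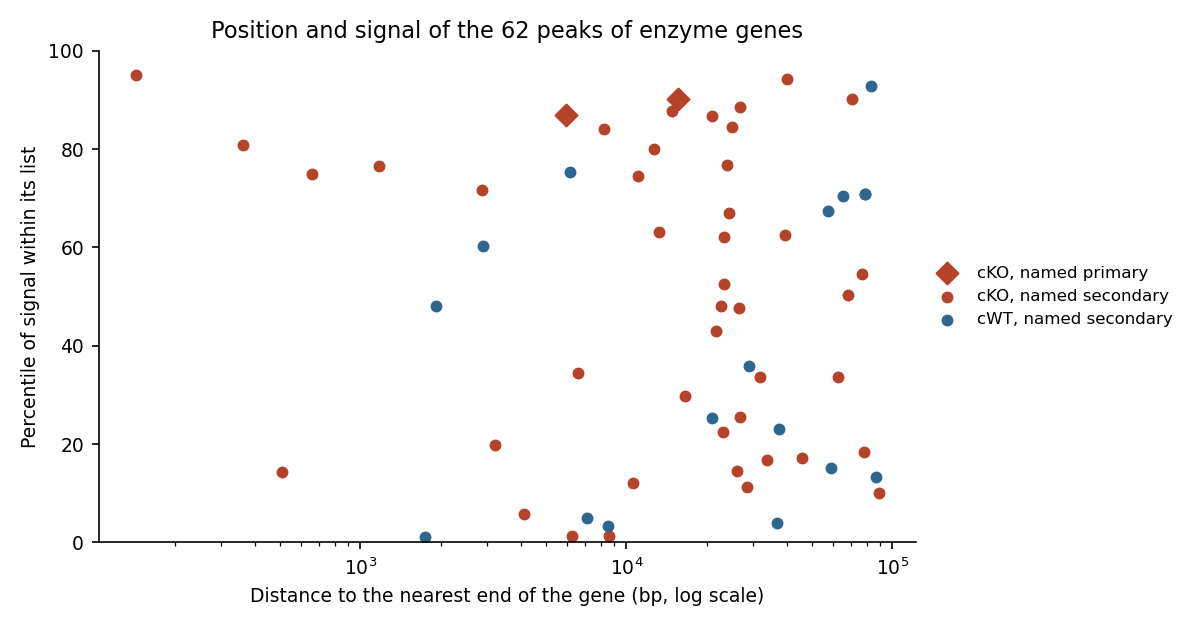
Percentile of the authors' signal within the peak's own list (vertical axis) against distance to the nearest end of the gene (bp, log scale) for the 62 assigned peaks; red points are cKO-specific, blue points cWT-specific, and diamonds mark the 2 peaks named primary. The 4 red points within 1000 bp of an end belong to Prdm15, Setd6, Sirt2 and Prdm8, and no blue point lies there.

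Partner genes of these enzymes, 94 in 7 lists of complex subunits and related enzymes, had a cKO-specific peak at 33 (35.1%) and a cWT-specific peak at 18 (19.1%), against 22.5% and 11.4% of coding genes. These shares were not matched for gene span, and the spans of the partner genes were not compared with those of coding genes. Polycomb subunits had one at 7 and 5 of 24 genes, with 3 peaks of each list at Jarid2 and 3 and 1 at Cbx8 and at Phc2. Deacetylase corepressor subunits had one at 10 and 4 of 21, with 5 and 4 at Tbl1xr1, a subunit of the nuclear receptor corepressor complexes. Acetyltransferases, which oppose the deacetylases, had one at 4 and 3 of 10, with 4 and 1 at Kat6a. Further lysine methyltransferases had one at 6 and 2 of 13, with 3 and 0 at Ehmt2, and further demethylases at 2 and 2 of 8, with 4 and 1 at Jmjd1c and 2 and 2 at Phf2. COMPASS subunits had one at 3 and 1 of 10, with 1 of each list at Wdr5, and readers and repair factors of DNA methylation at 1 and 1 of 8, with 1 and 0 at Mbd4 and 0 and 1 at Zbtb33.

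Because the lists hold only peaks specific to 1 genotype, a gene open to the same extent in both is absent from them, and they cannot check the identity or purity of the sorted cells. Of 10 microglial marker genes, 8 (80.0%) had a cKO-specific and 2 (20%) a cWT-specific peak, against 22.5% and 11.4% of coding genes; Cx3cr1 and Csf1r had neither. Of 30 markers of neurons, astrocytes, the oligodendrocyte lineage, vascular cells, lymphocytes and monocytes, 12 (40.0%) had a cKO-specific and 8 (26.7%) a cWT-specific peak, both also above those backgrounds, and the cWT share was above that of the microglial markers. Vascular markers had the highest cKO count of these lists, 4 of 6, and the highest cWT count, 2 of 6, was shared by the vascular, oligodendrocyte and the lymphocyte and monocyte lists. Of the 6 neuronal markers Rbfox3 had 2 cKO-specific peaks and 1 cWT-specific peak, and Snap25, Syt1, Tubb3, Slc17a7 and Gad1 had 0. None of the marker shares was matched for gene span. The part of other cells in the peaks of the enzyme genes was not tested.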

How the data were processed

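The submitters' processing notes name the tools MACS2 (version 2.2.7.1), Bowtie2 (2.4.4) and HOMER (4.11) and the GRCm38 (mm10) build. The step of each tool, any shift of reads for the transposase, the pooling of libraries and the criterion for a specific peak remain unstated in the sources used here. The authors deposited 1 headerless list per genotype (8615 cKO and 3490 cWT peaks) and, per peak, a signal, a score and a p-value, raw and adjusted, as read from layout and values; the score follows from the p-value, and the signal was compared only within a list. Libraries were grouped by title, 3 per genotype. Depth is unknown, and a deeper or cleaner set of libraries can lengthen a list.

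Genes and promoter windows came from RefSeq tables of GRCm38.p6. Peaks were assigned by midpoint to the nearest end of a coding gene (11013 of 12105 within 100 kb). Genes with at least 5 peaks were tested by a two-sided exact binomial test against the cKO share of all assigned peaks, adjusted over all such genes, which compares lists and not animals; the test was tried on simulated data. Enzyme genes with a peak are named, apart from any not reported here, with all peaks described from 3 upward. Members and lists were chosen with earlier results of these data known; span classes, promoter overlap and motifs were added after the values were seen. Python 3.11.15, numpy 2.4.6, pandas 2.3.3, scipy 1.17.1 and matplotlib 3.10.9 were used.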

Additional observations from a re-analysis of the deposited data

How the results depend on the processing

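With only peaks of an authors' p-value up to 0.5, 6 enzyme genes had a cKO-specific and 0 a cWT-specific peak, the cKO share was 100% (6 of 6 peaks) and 33.3% lay at gene ends. With peaks at or above their list's median score the gene counts were 20 and 7, with assignment within 10 kb 12 and 6 (21.1% at gene ends), and with the nearest of all annotated genes 20 and 8. Without Prdm, Hdac and Sirt symbols, 22 of 46 genes had a cKO-specific and 7 a cWT-specific peak, against 31 and 13 of 78. Fewer peaks or genes enter each of these by construction. For the settings that change the peaks or their assignment, shares of all coding genes were not computed. These counts therefore have no background beside them, and no conclusion is drawn from their size. The cKO share stayed between 68.4% and 75% in all settings but the first. The balance test called 0 genes wherever it was run, over 1 to 338 genes, of which 0 to 10 had an unadjusted p under 0.05. Promoter windows with a cKO-specific peak, an analysis chosen after seeing the data, numbered 4 with the p-value filter and 4 with the score filter. The score follows from the p-value and its filter is looser, so the second of these counts was fixed by the first. Such windows numbered 2 when the midpoint had to lie inside the window and 2 without Prdm, Hdac and Sirt symbols. For Dnmt3a, cKO minus cWT peaks was -1 within 10 kb, against 2, and the other genes described peak by peak, Hdac4 (4), Kmt2c (3), Prdm1 (2) and Smyd3 (-4), had 0 peaks left there. No overlap of member peaks appeared at 1 bp or at 50% of the shorter peak. No paired analysis was possible because each list is 1 set of peaks with no value for single libraries, and for the same reason no library could be left out. Unknown depth limits every count.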
